A study of Homo sapiens with 9 samples.

Results

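MPRIP and MYO18A, a pair of genes on chromosome 17 whose products work on actomyosin, held 85 of the 24037 peaks of a QKI-5 HITS-CLIP list, 51 in MPRIP and 34 in MYO18A. In HITS-CLIP, ultraviolet light (here 600 mJ/cm2) fixes RNA to bound protein inside living cells, the protein is immunoprecipitated and its attached RNA fragments are sequenced. The cells were mesHMLE, a mesenchymal line derived from immortalised human mammary epithelial cells (HMLE) by prolonged TGF-β1, given as 2.5 ng/ml for at least 14 days when the transition is induced. The label for cell type reads breast cancer, and a list of bound RNA cannot check the cells against expression markers. The groups were 7 libraries from immunoprecipitation with an antibody to QKI-5 (3 from the gel region of monomeric QKI-5 and 4 from that of the presumed dimer, 1 of them made with SuperScript IV) and 2 size-matched input libraries. All were made from mesHMLE cells, the replicates are called technical in the labels, and 1 input library numbered 2 is described as replicate 1. The authors pooled the libraries before peak calling, so no value below has a spread between replicates, the depth of each library is unknown, and no test was made. Where a share is followed by an interval, it is the 95% Wilson interval, which reflects counting error alone. It treats the peaks of a gene as independent, although neighbouring peaks share an intron.

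Both genes were chosen by their peaks in this same list, so their counts and heights are a description of how they were selected and support nothing further. A peak was a member when it lay on the strand of the gene and its centre fell within the gene in GENCODE release 44 on hg19: MPRIP (ENSG00000133030.22_17) at chr17:16945771-17120993, plus strand, 175 kb, and MYO18A (ENSG00000196535.20_18) at chr17:27398140-27507416, minus strand, 109 kb. The limits of the spans decided no membership. The nearest peaks of the same strand outside MPRIP were 598645 nt before it (height 19) and 501631 nt after it (height 15), and those outside MYO18A were 78709 nt before its 5′ end (height 36) and 122020 nt past its 3′ end (height 23). The outermost members were a peak of height 8, 96266 nt from the MPRIP start, and a peak of height 32, 28791 nt from its end, against heights of 37 and 41 at 15857 nt and 11309 nt from the ends of MYO18A. No peak of the opposite strand had its centre in either span.

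MPRIP is a scaffold that brings myosin phosphatase and RhoA to actin filaments, and so sits at the point where phosphorylation of the myosin light chain is reversed. MYO18A is an unconventional myosin that joins the Golgi protein GOLPH3 to actin and, with the adaptor LURAP1 and the kinases of the CDC42BP family, forms actomyosin bundles behind the leading edge of moving cells. QKI is a STAR-family RNA-binding protein, of which QKI-5 is the nuclear isoform. It recognises ACUAAC, read here as ACTAAC in the genome, together with a nearby UAAC or UAAU, called a partial site below (TAAC or TAAT). In pre-mRNA, where QKI binds relative to an alternative exon is known to bear on whether the exon is kept.

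The sequences that the description turns on are given first, 5′ to 3′ on the strand of the gene (hg19, sequence from GRCh37). Each gene has an alternative exon that the study amplified by RT–PCR, located here by matching the primers to the reference transcripts. They lie between the exons that carry the primers, as exon 23 of 24 in MPRIP-202 and exon 40 of 42 in MYO18A-203, and are shown with 20 nt of intron (lower case) and the exon in capitals. MPRIP exon 23 (chr17:17083921-17083983, 63 nt) is printed as far as its stop codon TGA, the last 3 letters, which begins at base 31 of the exon.
MPRIP exon 23, chr17:17083901-17083953: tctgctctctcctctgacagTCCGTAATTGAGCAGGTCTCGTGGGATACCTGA
MYO18A exon 40, chr17:27412602-27412686: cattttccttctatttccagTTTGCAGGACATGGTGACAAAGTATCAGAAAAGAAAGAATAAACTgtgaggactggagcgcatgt

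The 4 member peaks that held ACTAAC are shown because the element is what QKI is known for. Capitals mark ACTAAC and each partial site.
MPRIP, height 97, chr17:17066387-17066534: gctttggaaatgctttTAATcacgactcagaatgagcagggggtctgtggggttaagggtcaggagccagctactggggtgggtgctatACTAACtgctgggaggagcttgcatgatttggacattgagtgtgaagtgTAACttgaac
MPRIP, height 113, chr17:17087943-17088075: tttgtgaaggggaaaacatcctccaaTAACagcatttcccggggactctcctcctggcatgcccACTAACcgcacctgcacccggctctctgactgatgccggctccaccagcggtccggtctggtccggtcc
MYO18A, height 22, chr17:27463680-27463716: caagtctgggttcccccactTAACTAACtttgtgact
MYO18A, height 28, chr17:27459899-27459992: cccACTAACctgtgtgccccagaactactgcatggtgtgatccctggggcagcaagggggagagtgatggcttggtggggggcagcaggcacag

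The tallest peaks of both genes held no ACTAAC, and are shown for that contrast, along with the MYO18A peak that reaches into exon 40, in which the first 44 nt are exon and the partial sites follow in the intron.
MPRIP, height 143, chr17:17043417-17043542: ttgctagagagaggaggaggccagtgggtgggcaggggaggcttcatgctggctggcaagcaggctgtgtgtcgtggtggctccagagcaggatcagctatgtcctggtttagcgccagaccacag
MPRIP, height 130, chr17:17044778-17044891: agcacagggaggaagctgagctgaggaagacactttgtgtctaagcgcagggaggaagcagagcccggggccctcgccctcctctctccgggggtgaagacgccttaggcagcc
MYO18A, height 158, chr17:27412471-27412665: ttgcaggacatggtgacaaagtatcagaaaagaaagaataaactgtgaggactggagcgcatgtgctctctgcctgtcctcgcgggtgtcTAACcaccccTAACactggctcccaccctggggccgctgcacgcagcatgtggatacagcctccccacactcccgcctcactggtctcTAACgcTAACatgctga
MYO18A, height 214, chr17:27412397-27412469: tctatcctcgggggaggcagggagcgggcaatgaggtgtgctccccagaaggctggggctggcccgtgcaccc
MYO18A, height 149, chr17:27412342-27412395: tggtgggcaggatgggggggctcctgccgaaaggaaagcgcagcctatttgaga
MYO18A, height 167, chr17:27409534-27409610: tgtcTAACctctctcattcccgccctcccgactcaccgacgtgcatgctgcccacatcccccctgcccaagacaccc
MYO18A, height 124, chr17:27410167-27410301: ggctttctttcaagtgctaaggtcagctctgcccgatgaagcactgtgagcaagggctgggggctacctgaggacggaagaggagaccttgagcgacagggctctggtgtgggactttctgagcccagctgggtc

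Along MPRIP, the peaks were gathered in 4 stretches of the 3′ part of the gene. Of the 23 introns of MPRIP-202, 3 held peaks: intron 7 with 17, intron 15 with 17 and intron 23 with 7. The 117-nt exon 15 held 1 peak, and the remaining 9 lay past the end of this transcript, in a longer last exon. By class of the peak centre, 36 of 51 peaks were intronic (70.6%, 57.0 to 81.3%), 6 were in exons other than UTRs (11.8%, 5.51 to 23.4%), 9 were in a 3′UTR (17.6%, 9.57 to 30.3%) and none was in a 5′UTR. Of all 20913 peaks in coding genes, 80.7% were intronic and 8.16% were in a 3′UTR. The interval of the MPRIP intronic share held that of the list, and the interval of its 3′UTR share lay above it. The 9 peaks of the 3′UTR were neighbours in the same exon, though, so this interval cannot set the gene apart from the list. No peak lay in the first 96.3 kb of the gene.

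**Figure D1:**
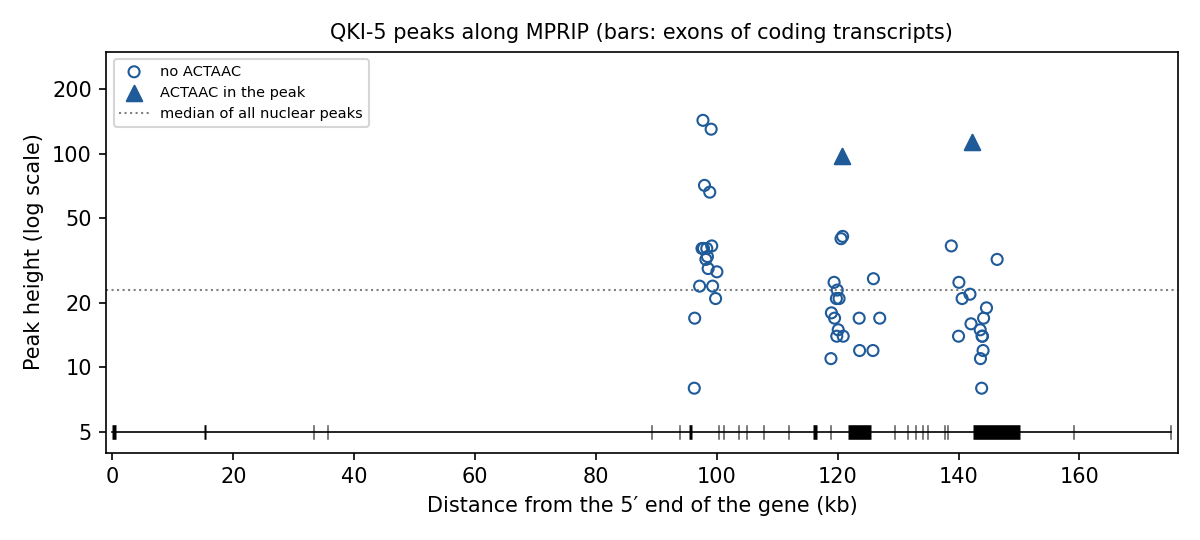
Height of each of the 51 MPRIP peaks (log scale) against its distance from the 5′ end of the gene in kb; black bars are exons of coding transcripts, triangles are peaks with ACTAAC and the dotted line is the median height of the nuclear list, 23. The first peak stands at 96.3 kb, the tallest (143 and 130) are in intron 7, and the triangles stand at heights of 97 and 113.

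Intron 7 of MPRIP (chr17:17041390-17045940, 4551 nt) was covered by peaks over 49.0% of its length. Its 17 peaks ranged from 8 to 143 in height with a median of 33, and 14 of them were at or above the median of the nuclear list, 23. The tallest pair, printed above, had heights of 143 and 130, which 2.11% and 2.50% of the 24019 nuclear peaks reached. Between them lay peaks of heights 71 and 66, and 12 peaks of this intron followed each other with gaps of at most 100 nt as a run of 1896 nt. The run was poor in partial sites, since the whole intron's peaks held 3 in 2232 nt, or 1.34 per kb, against 8.62 per kb in all nuclear peaks. Its peak of height 71 held the only ACTAAT in a member peak, 7.5 nt before the summit. Upstream of the intron, exon 7 is annotated with a pair of 5′ splice sites, one giving 160 nt in MPRIP-202 and one giving 514 nt in MPRIP-221, the MANE Select transcript, and the first peak began 293 nt past the longer form. The peak of height 130 and those of heights 37 and 21 had their centres in exons of a transcript without a defined coding sequence, which is why they are classed as exonic.

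Intron 15 of MPRIP-202 contains, in other transcripts, the longest internal exon of the gene, 3807 nt at chr17:17067423-17071229, annotated in 2 of the 14 coding transcripts, MPRIP-221 included, and skipped in MPRIP-202. Peaks flanked it: 12 in the 2752 nt before it, 2 inside it and 3 in the 3802 nt after it. The 12 upstream peaks had heights from 14 to 97 (median 21), the pair inside had 17 and 12, and those after it had 12, 26 and 17. The bound stretch began at exon 15 itself, where a peak of height 11 (chr17:17064643-17064670) ended on the last base of the exon and a peak of height 18 began 1 nt inside the intron. Its tallest peak was the one of height 97 with ACTAAC, whose element lay 941 nt before the long exon, flanked on either side by peaks of heights 40 and 41. Those 3 neighbours held 5, 3 and 2 partial sites, counting the TAAC within ACTAAC, all 10 of those in peaks of the intron. The densest group of partial sites in MPRIP peaks thus lay in and beside the peak of height 97. Another ACTAAC of the intron (chr17:17067393-17067398), nearer the long exon, was outside a peak, 688 nt from the nearest.

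At the alternative exon 23 of MPRIP, the 63-nt exon and the 518-nt intron before it held no peak, and all 7 peaks were in the 4153-nt intron after it (chr17:17083984-17088136). In order along the RNA their heights were 37, 14, 25, 21, 22, 16 and 113. The nearest began 558 nt past the exon (chr17:17084542-17084600), so no peak lay within 500 nt of either splice site of the exon. The tallest was at the far end: the peak of height 113 ended 61 nt before the last exon, and its ACTAAC lay 124 nt before the 3′ splice site of that exon and 0.5 nt from the centre of the peak. This was the only ACTAAC in the intron, which held no ACTAAT. The upstream intron held neither of these nor a partial site. The downstream intron held 18 partial sites, 2 of them in a peak, counting the TAAC within its ACTAAC. Of the 7 peaks, 3 also lay in a tentative gene model on the plus strand, ENSG00000278864, and their signal cannot be told apart from it. The other genes of the same strand within MPRIP, RNU6-767P and RN7SL775P, held none. In MPRIP-202 and MPRIP-206 the reading frame ends within exon 23, 30 nt before its 3′ end, whereas most transcripts that skip it stop in the last exon.

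The 9 peaks in the 3′UTR of MPRIP all lay past the end of the 738-nt last exon of MPRIP-202. They were in the long form of that exon (chr17:17088137-17095962, 7826 nt), annotated in 1 of the 14 coding transcripts, MPRIP-205. Their heights were 15, 11, 8, 14, 14, 12, 17, 19 and 32, with a median of 14, and 1 of them, the last, was at or above the list median of 23. This was the lowest median of the 4 stretches. None held ACTAAC or ACTAAT, but an ACTAAC lay 20 nt before the first of them, the only ACTAAC outside a peak and within 100 nt of one.

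Along MYO18A, all 34 peaks had their centres in introns (100%, 89.8 to 100%), beside 80.7% of all peaks in coding genes. Even so, 3 of them reached across a splice site of a coding transcript. As 23 of the 34 lay in intron 40, the interval, which treats peaks as independent, cannot set the gene apart from the list. Of the 41 introns of MYO18A-203, 4 held peaks: intron 2 with 5, intron 10 with 5, intron 11 with 1 and intron 40 with 23. No exon, 5′UTR or 3′UTR held a peak centre. The bound part thus centred on a single intron, with thinner binding around an exon of 12 nt and in the long intron near the 5′ end.

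**Figure D2:**
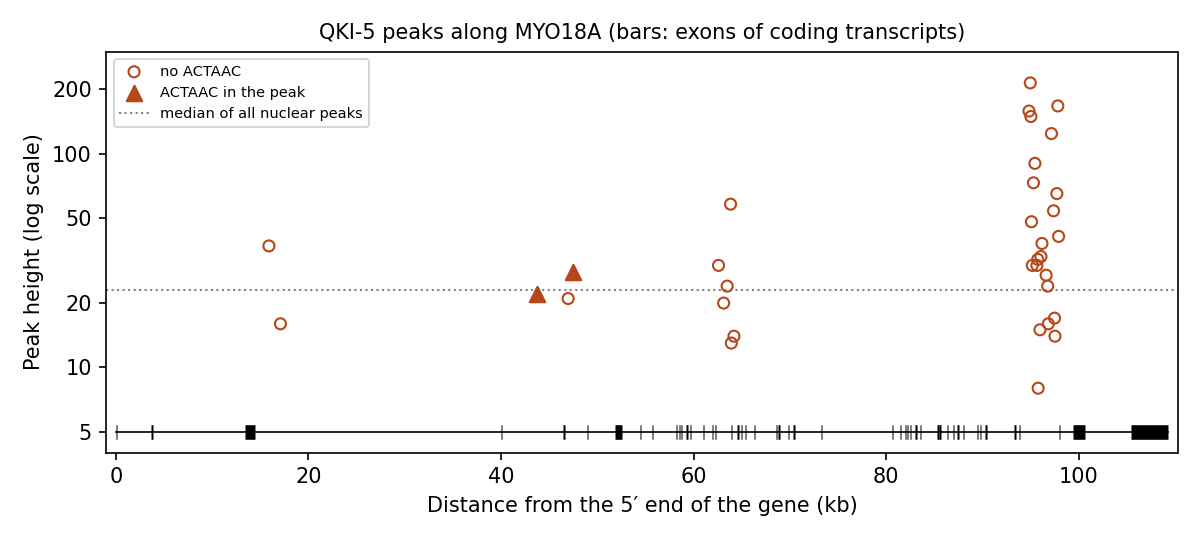
Height of each of the 34 MYO18A peaks (log scale) against its distance from the 5′ end of the gene in kb; black bars are exons of coding transcripts, triangles are peaks with ACTAAC and the dotted line is the median height of the nuclear list, 23. The 23 peaks of intron 40 reach 214, and both triangles, at heights of 22 and 28, are in the long intron 2.

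Exon 40 of MYO18A (chr17:27412622-27412666, 45 nt) is coding and is annotated in 1 of the 8 transcripts that hold both primers, MYO18A-203, the MANE Select transcript. The reference products of the primer pair are 200 nt with the exon and 155 nt without it. The 789-nt intron before it held no peak. The intron after it (chr17:27409457-27412621, 3165 nt) held 23 peaks, 7.27 per kb, which covered 63.9% of its length. Heights ran from 8 to 214 with a median of 38, and 18 of the 23 were at or above the list median.

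The tallest peaks of this intron stood at its ends. At the 5′ splice site, a peak of height 158 covered 44 of the 45 nt of the exon and ran on into the intron, followed by peaks of heights 214 and 149 that began 152 and 226 nt past the exon. The height of 214 was reached by 1.06% of nuclear peaks, and the 3 peaks were parted by single bases. At the other end, a peak of height 167 ended 77 nt before exon 41 and a peak of height 41 crossed its 3′ splice site by 8 nt. Between the ends, the peaks from 1000 to 2000 nt past the exon were low, up to 38, and a peak of height 124 began at 2320 nt. A run of 10 peaks over 1054 nt joined the exon with the first part of the intron.

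None of the 23 peaks held ACTAAC, and the intron itself held none. It held 1 ACTAAT, which was outside a peak, 18 nt from the nearest. Partial sites were more frequent: 24 in the intron (7.58 per kb) and none in the intron before the exon. Of these, 14 lay in 8 of the peaks. The peak across the exon held 4, all TAAC and all in its intronic part, while the peaks of heights 214, 149 and 124 held none. A partial site was in 37.5% of all nuclear peaks, so the 8 of 23 here are near the share of the list. Per kb of peak, the rate was 6.75 here and 8.62 in all nuclear peaks.

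**Figure D3:**
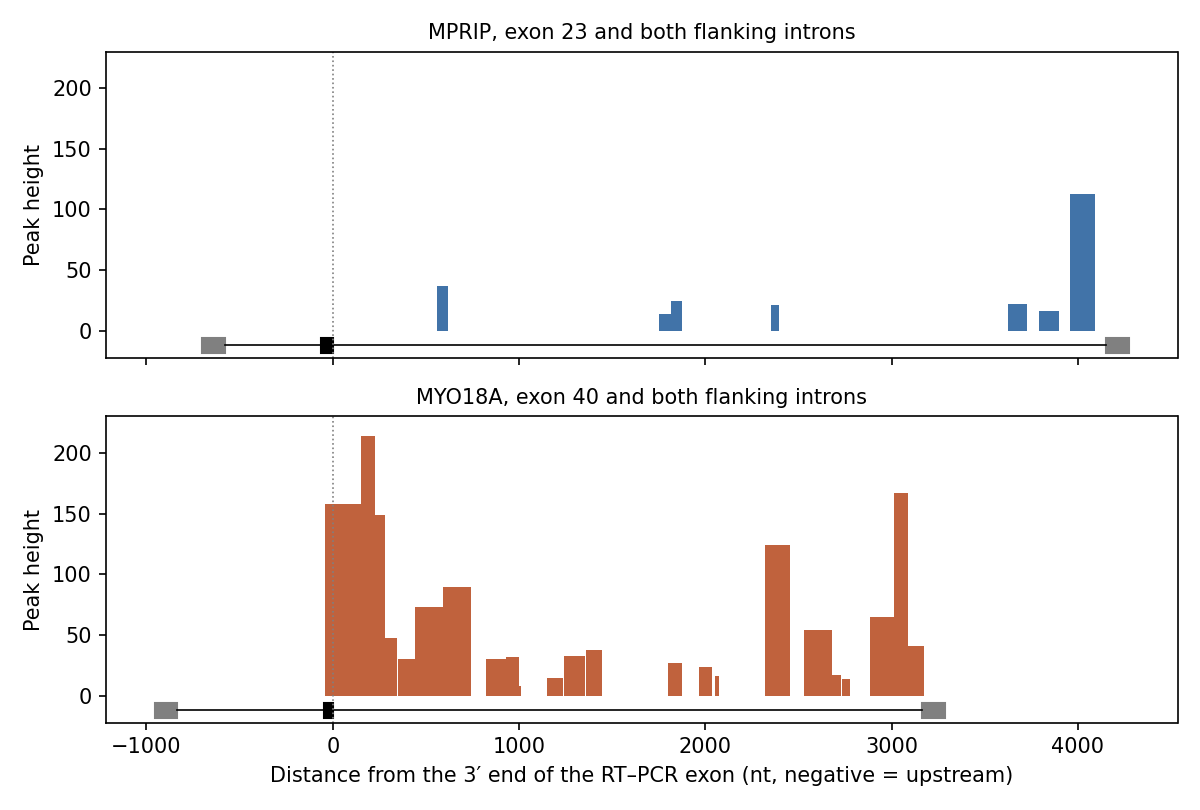
Peaks at the alternative exons of MPRIP (top) and MYO18A (bottom): bars show the extent and height of each peak against the distance in nt from the 3′ end of the exon, with the alternative exon in black and the neighbouring exons in grey, drawn at a fixed length. Both upstream introns are empty; the 7 MPRIP peaks begin 558 nt past the exon and the highest, 113, is at the far end, whereas the 23 MYO18A peaks begin within the exon.

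The alternative exons of both genes were thus alike in having peaks in the downstream and none in the upstream intron. The upstream introns were shorter, however, at 518 nt in MPRIP and 789 nt in MYO18A against 4153 and 3165 nt downstream. The exons were unlike in where the peaks began and how densely they lay. MYO18A had 5 peaks with centres within 500 nt of its exon and MPRIP had none, and the density of peaks was 7.27 per kb in the MYO18A intron against 1.69 per kb in that of MPRIP. The MPRIP intron held ACTAAC in 1 peak and the MYO18A intron in none.

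A second group of MYO18A peaks surrounded exon 11, which has only 12 nt (chr17:27443462-27443473) and is annotated in 4 of the 7 coding transcripts. It is shown with 40 nt of the intron before it and 20 nt of the intron after it, the exon in capitals.
MYO18A exon 11, chr17:27443442-27443513: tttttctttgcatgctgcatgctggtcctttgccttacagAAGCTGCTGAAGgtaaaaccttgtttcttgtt
Here 5 of the 6 peaks were upstream, in the 1589-nt intron 10, and 1 was in the 603-nt intron 11. Their heights along the RNA were 30, 20, 24, 58 and 13 before the exon and 14 after it. The peak of height 58 (chr17:27443517-27443617) ended 43 nt before the exon, and that of height 13 (chr17:27443472-27443511) lay over the 3′ splice site and took in 2 nt of the exon. The side with more peaks was therefore the opposite of that at exon 40, though the upstream intron here was also the longer. Per kb there were 3.15 peaks before the exon and 1.66 after it, the latter from 1 peak. None of the 6 held ACTAAC.

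In the long intron 2 of MYO18A-203 (43688 nt), 5 peaks had heights of 37, 16, 22, 21 and 28 and stood alone, none within 100 nt of another. Both ACTAAC peaks of the gene were among them, at heights of 22 and 28. In the first, a TAAC overlaps ACTAAC by its last 2 letters, as TAACTAAC. In the second, the element lay near the 5′ edge of the peak, 41 nt before its centre. Other coding transcripts have exons within this intron. The ACTAAC of the peaks of heights 22 and 28 lay 3663 and 822 nt past the nearest such exon upstream.

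Counted per peak, without regard to width, the share of peaks with ACTAAC could not be set apart from that of the list in either gene. Of 51 MPRIP peaks, 2 held ACTAAC (3.92%, 1.08 to 13.2%), and of 34 MYO18A peaks, 2 did (5.88%, 1.63 to 19.1%), against 10.1% of all nuclear peaks, a share that lies within both intervals. With peaks up to 5 nt apart merged in these genes but not in the list, the shares were 6.25% and 10.5%. With ACTAAT added, MPRIP had 3 (5.88%, 2.02 to 15.9%) and MYO18A still 2, against 13.7% of nuclear peaks, also within both intervals. In windows of the same length 500 nt to the 5′ and the 3′ side, 1 MPRIP window of each side held ACTAAC and no MYO18A window did, and the shares for all nuclear peaks were 1.56% and 1.83%. No member peak held ACTAAC or ACTAAT with a separate partial site 1 to 20 nt away, which 4.51% of nuclear peaks did. A partial site of any kind, those within ACTAAC and ACTAAT included, was in 10 MPRIP peaks (19.6%) and 12 MYO18A peaks (35.3%), against 37.5% of nuclear peaks. Member peaks were wider, with a median of 94 nt in MPRIP and 78.5 nt in MYO18A against 61 nt, and richer in G and C (56.8% and 56.9% against 51.5%). The shares per peak make no allowance for this width. By length, the 2 ACTAAC peaks of MPRIP stood in 4851 nt of peak and the 2 of MYO18A in 2842 nt. In the nuclear list, 2415 such peaks stood in 1628355 nt, so by length both genes held fewer than the list.

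Seen from the element, most sites in the genes were without a peak. The sense strand of MPRIP held 14 ACTAAC, of which 2 were in peaks (14.3%, 4.01 to 39.9%) and 10 were more than 1000 nt from the nearest peak, 6 of them in introns 1 and 3. MYO18A held 10, of which 2 were in peaks (20.0%, 5.67 to 51.0%) and 7 were more than 1000 nt away. The opposite strands held 25 and 10. Peaks took up 2.77% of the MPRIP span and 2.60% of that of MYO18A, so ACTAAC was more frequent within peaks than outside them, at 0.412 against 0.0704 per kb in MPRIP and 0.704 against 0.0752 per kb in MYO18A, though each in-peak rate rests on 2 sites. For partial sites the rates were 3.92 within and 4.16 per kb outside MPRIP peaks, and 6.69 within and 3.65 per kb outside MYO18A peaks. Both rates within peaks were below the 8.62 per kb of all nuclear peaks.

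Heights differed between the genes. The median MPRIP peak was 21 high (quartiles 15 and 34.5), and 24 of 51 peaks (47.1%) were at or above the list median of 23, beside 53.4% of nuclear peaks. The median MYO18A peak was 30 high (quartiles 20.25 and 57), and 23 of 34 (67.6%) were at or above it. The 5 tallest were 143, 130, 113, 97 and 71 in MPRIP and 214, 167, 158, 149 and 124 in MYO18A, all 5 of the latter in intron 40. In MPRIP both ACTAAC peaks were among the 5 tallest, whereas in MYO18A both ACTAAC peaks were below the gene's median.

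**Figure D4:**
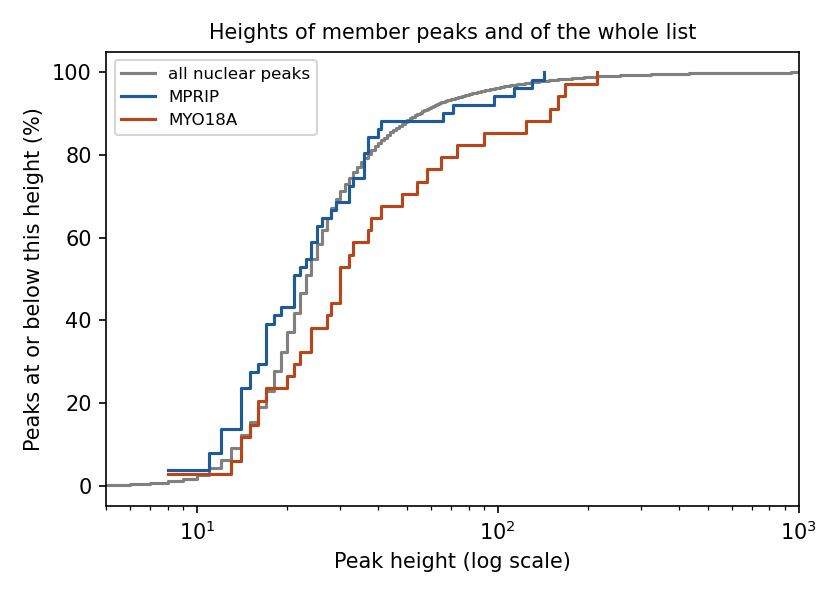
Cumulative share of peaks (%) at or below each height (log scale) for MPRIP, MYO18A and all nuclear peaks. The MPRIP curve runs near that of the list, with medians of 21 and 23, and the MYO18A curve is shifted to greater heights, with a median of 30 and a maximum of 214.

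Peaks were close together in both genes. Joined over gaps of at most 100 nt, the 51 MPRIP peaks formed 20 runs and the 34 MYO18A peaks 15, with 8 and 9 peaks standing alone. Runs of 5 or more peaks numbered 3 in MPRIP, with 22 peaks, and 1 in MYO18A, with 10. Neighbours were often parted by no more than 5 nt, in 19 places in MPRIP and 15 in MYO18A, so neighbouring entries need not be separate contacts. No count of runs or gaps over the whole list stands beside these, so they cannot set the genes apart from it. Taking introns as the stretches between exons of coding transcripts, 6989 introns of coding genes held a peak and 13.2% of them held 5 or more. Of the 4 such MPRIP introns with a peak 3 did, and of the 6 of MYO18A 2 did. As many peaks as the 23 of MYO18A intron 40 were found in 52 of the 6989 introns, that intron included, and as many as the 17 of MPRIP intron 7 in 110.

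By number of peaks, MPRIP was level with GAS6, a secreted ligand of receptor tyrosine kinases, at 51. The genes next to them were TNRC6A, a partner of Argonaute, with 53, ERBIN with 50 and STARD13 with 49. MYO18A shared its count of 34 with HMGA2, a chromatin protein, with VCL, the focal adhesion protein vinculin, and with the readthrough locus ENSG00000275778, and ATP11A followed with 33. These counts take no account of gene length, and per kb MPRIP (0.291) and MYO18A (0.311) lay between GAS6 (1.17) and VCL (0.269). The share of peaks with ACTAAC among these neighbours ran from 5.88% in VCL to 24.2% in ATP11A. At least as many peaks as in MPRIP were found in 22 of the 4750 coding genes with a peak, and as in MYO18A in 65.

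Among 26 other genes of the actomyosin system, 17 held at least 1 peak (65.4%), against 23.6% of all 20162 coding genes. The list was drawn up with earlier results of these data known, so the difference supports nothing further. Expression was not measured here, so the shares need not be over genes that are alike in level, and length was not matched. The 26 genes held 111 peaks, of which 15 had ACTAAC (13.5%), and each had fewer peaks than MYO18A. Of the myosin phosphatase itself, to which MPRIP binds, the catalytic subunit PPP1CB had 2 peaks, the targeting subunits PPP1R12A and PPP1R12B had 3 and 1, and PPP1R12C had none. In each of the 3 bound genes 1 peak held ACTAAC. RHOA had none, and its effector kinases ROCK1 and ROCK2 had 9 and 2. Of the light chain kinases and their relatives, CIT had 18 peaks, 6 of them in its 3′UTR, CDC42BPA and CDC42BPB 11 each, MYLK 10, and DAPK3 and CDC42BPG none. Of the non-muscle myosin II chains, MYL6 had 10 peaks, 9 of them in its 3′UTR and the tallest at 304, MYH10 had 7, MYH9 3, MYL9 1, and MYH14, MYL12A and MYL12B none. Of the partners of MYO18A, GOLPH3 had 14 peaks, 13 of them intronic and 0.282 per kb, ARHGEF7 7, LURAP1 and PAK2 1 each and GIT1 none. The paralog MYO18B, a muscle protein, had none. In such a list, a gene that is not bound and a gene expressed too little to give a peak cannot be told apart.

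**Figure D5:**
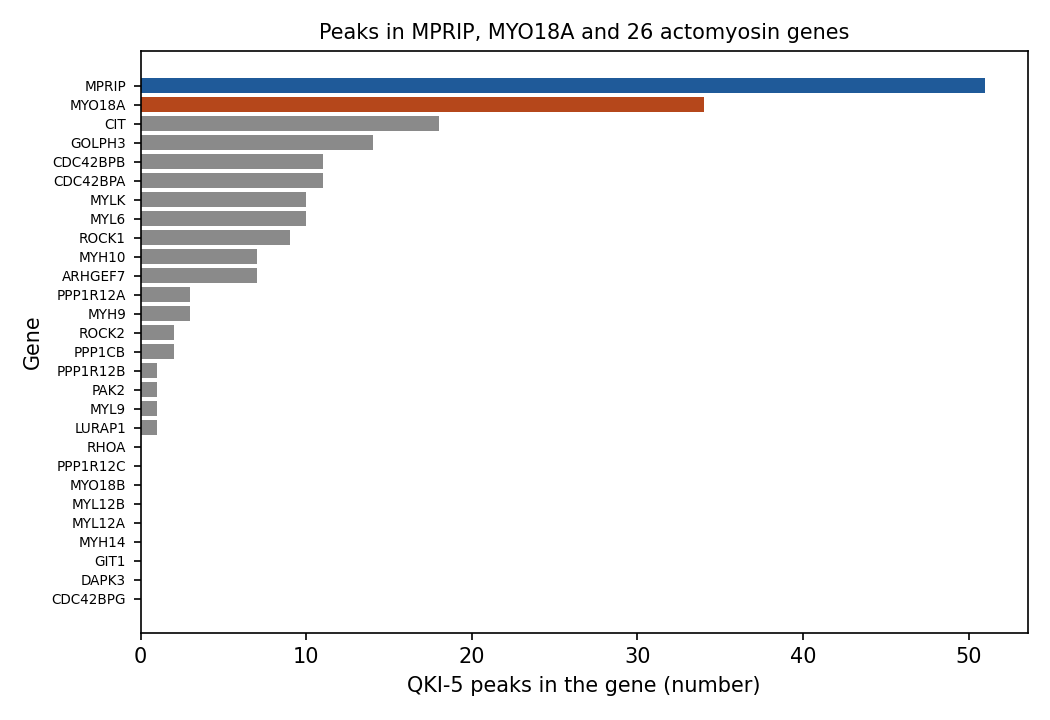
Number of QKI-5 peaks in MPRIP (blue), MYO18A (orange) and the 26 actomyosin genes (grey), 1 bar per gene. MPRIP (51) and MYO18A (34) lead because they were chosen by their peaks, CIT follows with 18, and 9 genes are at 0.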

How the data were processed

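The QKI-5 immunoprecipitation and size-matched input libraries were processed by the authors, who per the labels trimmed reads with cutadapt 1.3, mapped them to hg19 with TopHat2 2.0.10, collapsed duplicates by molecular barcode, filtered alignments by mapping quality and, on pooled libraries, called peaks per strand against the input with MACS2 2.1.1.20160309. The deposited list gives for each peak its position, summit and a height, a signal that is a whole number for the pooled libraries and was used only within the list. Positions are counted from 1. The 18 mitochondrial peaks were left out of motif and annotation work. Gene models were GENCODE release 44 on GRCh37, and centres were classed as UTR, other exon or intron over all transcripts. Motifs were exact matches on the strand of the peak, with TAAC and TAAT also counted inside ACTAAC and ACTAAT. Genes named were the members, an actomyosin list, the 2 coding genes above and below each member by peak count and genes overlapping on its strand. Peaks named singly were the 5 tallest of each gene, those with ACTAAC or ACTAAT, and those nearest the RT–PCR exons. Peaks at MPRIP exon 15, MYO18A exon 11 and others described by place were chosen after their values were seen. Sequences are printed for some of these peaks, and 1 is not reported here. The members and lists were chosen with earlier results of these data known. Functions were checked on simulated data: all 400 planted motifs were found and 0 of 1000 lookups differed from a direct count. Python 3.11.15 with pysam 0.24.0 and samtools 1.23.1 were used.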

Additional observations from a re-analysis of the deposited data

How the results depend on the processing

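The peak list is pooled, so no value has replicate error, and 1 list cannot show how the peaks would vary between libraries. No paired analysis was possible because the list carries no column per library. Of 58 alternative values, 44 stayed within 1.5 times the reported count or within the interval of the reported share or median. With only peaks at or above the median height, MPRIP had 24 peaks, 87.5% of them intronic, and 3 at its RT–PCR exon. When introns were given precedence over exons, the intronic share of MPRIP was 100%, because each of its exonic and 3′UTR peaks lies in an intron of some transcript. With a partial site required 1 to 20 nt away, the ACTAAC share was 0 in both genes, and with TACTAAC it was 0 in MYO18A. Within 250 and 500 nt of the RT–PCR exon, MPRIP had 0 peaks in either window and MYO18A had 2 and 5, since these windows leave out most of the intron. Merging peaks up to 5 nt apart, an alternative chosen after seeing the data, left 32 peaks in MPRIP and 19 in MYO18A, and 9 at the RT–PCR exon of MYO18A, and raised the ACTAAC shares to 6.25% and 10.5%, since the same number of peaks with ACTAAC stood against fewer peaks. ACTAAC shares rest on 2 peaks in each gene, so a change of 1 peak moves them by much.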
